A study of Homo sapiens with 4 samples.

Results

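The major histocompatibility region on the short arm of human chromosome 6 and its alternative haplotype contigs held 798 of the 86516 peaks in the CTCF and H3K27ac lists of DU145 cells. Peaks were chosen by position alone. The first set had its summits on chromosome 6 between positions 28500000 and 33500000 of genome build hg19 and counted 37 CTCF and 99 H3K27ac peaks. The second set lay on the 7 haplotype contigs of this region that the build carries beside chromosome 6, named apd, cox, dbb, mann, mcf, qbl and ssto, and counted 214 CTCF and 448 H3K27ac peaks. Together they made up 251 of 36152 CTCF peaks and 547 of 50364 H3K27ac peaks.

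DU145 is an established human prostate cancer cell line grown from a brain metastasis, and LNCaP one grown from a lymph node metastasis. The series has chromatin of DU145 cells recovered with a CTCF antibody, chromatin of DU145 cells recovered with an H3K27ac antibody, and unenriched input chromatin, 1 sample from each line. All were untreated cells in the same medium, per the labels, with 1 library each, so no difference below could be tested and the intervals given cover counting error only. The lists give positions without gene names and no hg19 annotation was used here, so peaks were not assigned to genes and the cell line was not checked against marker genes.

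The major histocompatibility complex encodes the proteins that show peptides to T cells. Its class I part holds genes of molecules that nearly all nucleated cells display, and those of MICA and MICB, stress-induced ligands of natural killer cells. The class III part holds genes of the cytokines TNF and lymphotoxin, of the complement components C2, CFB, C4A and C4B, and of NOTCH4. The class II part holds HLA-DR, HLA-DQ and HLA-DP, which are mainly displayed by immune cells, the peptide transporter genes TAP1 and TAP2, the immunoproteasome genes PSMB8 and PSMB9, and BRD2, a reader of acetylated histones. Haplotypes differ here more than elsewhere in the genome, in single bases and in gene number, with the HLA-DRB genes as the best known case. CTCF is a zinc finger protein that binds DNA at insulators and loop anchors, and H3K27ac is an acetylation of histone H3 at active promoters and enhancers. The chromosome 6 sequence of the build is itself 1 haplotype, and the contigs carry the same region from other people's chromosomes.

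Counted on the chromosome 6 sequence alone, the region was rich in H3K27ac peaks and rather poor in CTCF peaks. CTCF peaks numbered 7.4 per Mb in the region (exact Poisson 95% interval 5.21 to 10.2), against 10.3 per Mb on the rest of chromosome 6 and 11.5 per Mb over the rest of the assembled chromosomes. H3K27ac peaks numbered 19.8 per Mb in the region (16.1 to 24.1), against 11.7 per Mb on the rest of chromosome 6 and 16.1 per Mb elsewhere. The region thus had 2.68 H3K27ac peaks for each CTCF peak, against 1.14 on the rest of chromosome 6 and 1.39 elsewhere. Of 445 windows of 5 Mb with at least 20 peaks of each mark, 433 had a lower ratio and 11 a higher one. By counts alone the region was less unusual: of 566 windows, 165 had fewer CTCF peaks and 424 had fewer H3K27ac peaks. With the contigs joined to chromosome 6 as described below, there were 26.4 CTCF and 43.2 H3K27ac sites per Mb, unplaced sites included. These join calls on 8 sequences and cannot be set directly beside 1 sequence, so a low CTCF density was shown for the chromosome 6 calls only.

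The H3K27ac peaks were concentrated in class III. Class III, from 31500000 to 32200000, had 30 H3K27ac peaks or 42.9 per Mb (28.9 to 61.2), with 5 CTCF peaks or 7.14 per Mb. Class I, from 29600000 to 31500000, had 33 H3K27ac peaks or 17.4 per Mb (12.0 to 24.4) and 16 CTCF peaks or 8.42 per Mb. Class II, from 32200000 to 33400000, had 23 H3K27ac peaks or 19.2 per Mb (12.2 to 28.8) and 11 CTCF peaks or 9.17 per Mb. The interval of class III for H3K27ac lay above the class I and class II intervals by a narrow margin, while the 3 CTCF intervals overlapped widely. The telomeric flank, up to 29600000, had 12 H3K27ac and 5 CTCF peaks, and the last 0.1 Mb before the centromeric edge had 1 H3K27ac peak and no CTCF peak.

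**Figure D1:**
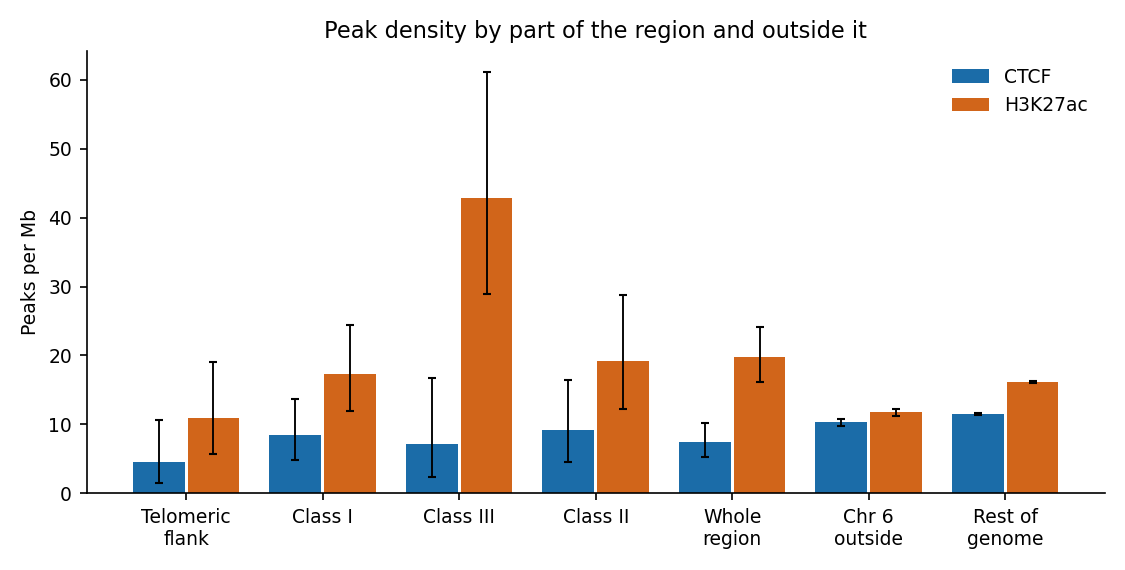
Peaks per Mb (vertical axis) of CTCF (blue) and H3K27ac (orange) in the parts of the region, in the whole region, on the rest of chromosome 6 and over the rest of the assembled chromosomes; lines are exact Poisson 95% intervals of counting error. H3K27ac in class III stands at 42.9 peaks per Mb, while CTCF stays between 4.55 and 9.17 in all parts shown.

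Peaks were spread unevenly along each part. The widest stretch of the region without a CTCF peak ran from 28806923 to 29617922 on chromosome 6, a length of 811 kb, and held 7 H3K27ac peaks. The widest stretch without an H3K27ac peak ran from 28949444 to 29691244, a length of 742 kb, and held 2 CTCF peaks. Both stretches crossed from the telomeric flank into class I, and the interval 29.0 to 29.5 Mb had no peak of either mark. Neighbouring CTCF peaks lay a median of 53.4 kb apart and neighbouring H3K27ac peaks 12.9 kb. Of 98 neighbouring H3K27ac pairs, 30 were less than 1 kb apart, and of 36 CTCF pairs 0 were.

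When H3K27ac peaks up to 12500 bases apart were joined, the 99 peaks formed 51 domains, 25 of them a single peak. The longest spanned 28554662 to 28574897 in the telomeric flank, 20.2 kb with 3 peaks. The next ran from 32145050 to 32164361 in class III, 19.3 kb with 5 peaks, and from 33377533 to 33393701 in class II, 16.2 kb with 5 peaks and 2 CTCF summits. The fourth, 30736591 to 30750447 in class I, and the fifth, 31789460 to 31803279 in class III, spanned 13.9 and 13.8 kb. No domain of the region passed 30 kb, against 873 of 17912 over the assembled chromosomes, where the longest was 281 kb. At that share few of 51 domains would be that long, so this is no clear difference. Wide single peaks were less common: 14 of 99 H3K27ac peaks in the region (14.1%, Wilson 95% interval 8.61 to 22.3%) and 13.6% of those on the contigs exceeded 1 kb, against 25.7% elsewhere.

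CTCF peaks in the region were weak, and H3K27ac peaks had a median fragment number close to that of the rest of the list. The fold enrichment of a peak is the authors' own value, the ratio of fragments at its summit to the local background of input chromatin. Its median over CTCF peaks was 6.90 in the region (range 3.44 to 18.9) and 6.90 on the contigs (up to 22.1), against 9.59 over the rest of the assembled chromosomes. Of 430 other autosomal 5 Mb windows, 7 had a lower CTCF median and 423 a higher one. For H3K27ac the median was 5.51 in the region (3.11 to 20.4) and 5.51 on the contigs (up to 34.0), against 4.55 elsewhere, and 346 windows had a lower median and 80 a higher one.

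The number of fragments at each summit was solved from the deposited fold and p-value. CTCF summits had a median of 23 fragments in the region (14 to 65) and 24 on the contigs (13 to 76), against 45 elsewhere. In the region 2 of 37 CTCF peaks, and on the contigs 12 of 214, reached that median of 45. H3K27ac summits had a median of 22 fragments in the region (12 to 84) and 22.5 on the contigs (11 to 141), against 23 elsewhere. At the stricter threshold of a −log10 q of 10 or more, which 79.8% of all CTCF and 43.4% of all H3K27ac peaks passed, 22 of 37 CTCF (59.5%) and 49 of 99 H3K27ac peaks (49.5%) of the region remained. The lower CTCF strength was thus present in fragments as well as in fold, whereas the higher H3K27ac fold went with fragment numbers close to those elsewhere.

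A low local background went with both. A peak sits at the genome-wide background when its local background equals the lowest level of its list, 2.18 fragments for CTCF and 3.18 for H3K27ac. In the CTCF list 31.1% of all peaks were at that level, and in the H3K27ac list 30.9%. In the region 32 of 37 CTCF peaks (86.5%, 72.0 to 94.1%) and 96 of 99 H3K27ac peaks (97.0%, 91.5 to 99.0%) were, and on the contigs 94.4% and 98.7%. None of the 430 other autosomal windows with at least 20 peaks of each mark had a share as high for either mark; their highest were 78.3% for CTCF and 84.4% for H3K27ac, and their medians 23.4% and 20.8%. Higher shares did occur on the sex chromosomes, for CTCF in 12 of 17 windows of chromosome X (up to 92.6%) and 1 of 2 of chromosome Y, and for H3K27ac in 4 of 16 windows of chromosome X (up to 100%). The haplotype contig of chromosome 17, the other alternative sequence set beside it, had 17 of 22 CTCF peaks (77.3%) and 28 of 38 H3K27ac peaks (73.7%) at that level, with median folds of 10.0 and 6.23. Among peaks at the genome-wide background alone, CTCF summits had a median of 23 fragments in the region against 33 elsewhere, and H3K27ac summits 23 against 18. How reads that match several sequences were treated is not given in the sources used here, and its part in these values was not tested.

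The change of background fell at the edges of the region. In 0.5 Mb intervals, 60.0 to 100% of CTCF peaks and 80.0 to 100% of H3K27ac peaks inside the region were at the genome-wide background, in the 9 of 10 intervals with a peak. In the 14 intervals of the flanking 3.5 Mb on each side, 0 to 18.8% of CTCF peaks and 0 to 25% of H3K27ac peaks were. Median CTCF fragments were as low as 17 in an interval inside and lay between 26 and 83 outside, where 12 of the 14 intervals exceeded every interval inside. Median H3K27ac fragments lay between 17 and 30.5 inside and between 19 and 45.5 outside, where 8 of the 14 intervals exceeded every interval inside. The first CTCF peak inside the telomeric edge, at 28510376 to 28510602, had 25 fragments and a fold of 7.47, and the last one outside it, at 28463958 to 28464138, had 25 fragments and a fold of 4.76. The last CTCF peak inside the centromeric edge, at 33393750, had 65 fragments and a fold of 18.9, and the first one outside it, at 33547909, had 32 and 7.54. For H3K27ac, the outermost peaks inside had 21 fragments at 28554662 and 15 at 33493265, and the nearest outside had 21 at 28410547 and 34 at 33538540.

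**Figure D2:**
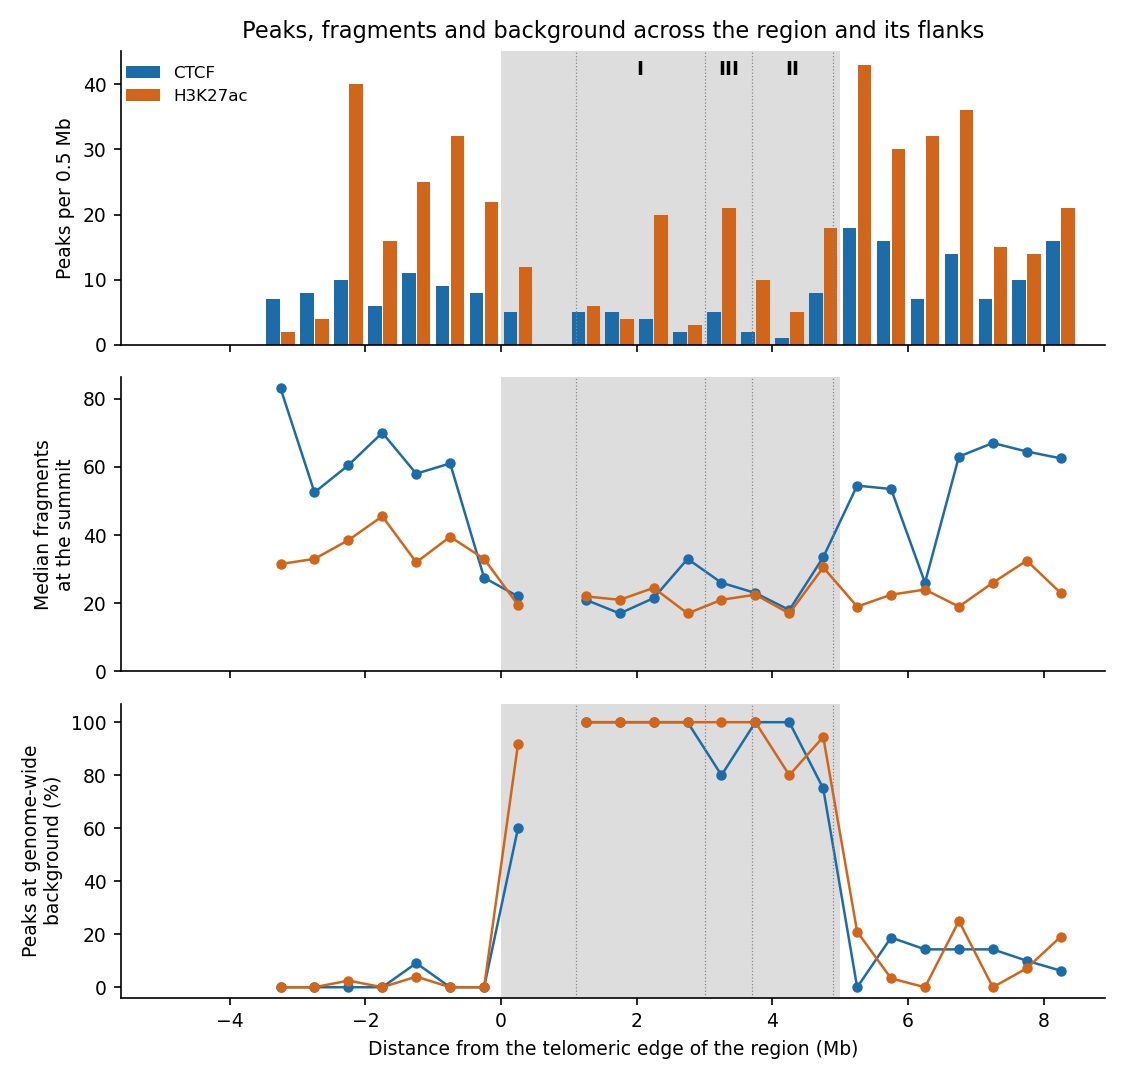
Peaks per 0.5 Mb (top), median fragments at the summit (middle) and share of peaks at the genome-wide background in percent (bottom) against the distance in Mb from the telomeric edge of the region, which is shaded; dotted lines bound classes I, III and II. Both marks reach 60.0% or more at the background level inside and stay at or below 25% outside, and 12 of the 14 outside intervals exceed every inside interval in median CTCF fragments.

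The 5 strongest CTCF peaks of the region lay in classes I and II. The highest fold, 18.9 with 65 fragments (50.2 to 82.8), was at chromosome 6, 33393750 to 33394181, at the class II end. It ranked 4245th in its list. The next, at 30509266 to 30509546 in class I, had a fold of 14.6 and 50 fragments. Peaks of 42 fragments and a fold of 12.3 followed at 29720879 to 29721116 and at 31105257 to 31105520, both in class I, and one of 41 fragments and a fold of 12.1 at 33093936 to 33094229 in class II. The strongest in class III, at 31737622 to 31737890, had 43 fragments at a higher background and a fold of 10.0, and that of the telomeric flank, the outermost peak at 28510376, had the 25 fragments given above.

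Strong H3K27ac peaks reached further; those named here are not the full top of the list. The highest, at 32936303 to 32938568 in class II, was 2266 bases wide and had 84 fragments (67.0 to 104) and a fold of 20.4, rank 3480 in its list. A peak at 32163772 to 32164361 in class III had 63 fragments and a fold of 15.3. A peak of 62 fragments and a fold of 15.1 lay at 33238956 to 33239727 in class II, and one of 59 fragments and a fold of 14.4 at 29855034 to 29856221 in class I. The strongest of the telomeric flank, at 28890692 to 28891763, had 45 fragments and a fold of 11.

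The marks shared bases at 4 places in the region. In the CTCF list 14.2% of all peaks shared at least 1 base with an H3K27ac peak, and in the H3K27ac list 10.1% shared one with a CTCF peak. In the region 4 of 37 CTCF peaks (10.8%, 4.29 to 24.7%) and 4 of 99 H3K27ac peaks (4.04%, 1.58 to 9.93%) did, and on the contigs 11 of 214 (5.14%, 2.89 to 8.97%) and 11 of 448 (2.46%, 1.38 to 4.34%). The H3K27ac intervals lay below the list's share in both sets, whereas the CTCF interval of the region included it and that of the contigs did not. Both shares of the region count the same 4 places. The low H3K27ac share therefore restates the larger number of H3K27ac peaks for each CTCF peak and is not a separate result. The contigs repeat the same loci, so their intervals count some places more than once. With recurrent peaks of all 8 sequences joined into sites, as described below, 9.26% of placed CTCF sites shared a base (5.11 to 16.2%), which included the list's share. For H3K27ac sites it was 5.61% (3.16 to 9.77%), still below it. From an H3K27ac summit the nearest CTCF summit was a median of 63.1 kb away in the region, against 12.3 kb elsewhere. From a CTCF summit the nearest H3K27ac summit was 20.9 kb away in the region, against 22.8 kb elsewhere.

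The 4 shared places on chromosome 6 were at the ends of the region. CTCF peaks at 28574660 to 28574882, with 14 fragments, and at 28806735 to 28806922, with 22, met H3K27ac peaks of 13 and 18 fragments in the telomeric flank. In class II, a CTCF peak of 38 fragments at 33359040 to 33359301 met an H3K27ac peak of 17, and one of 17 fragments at 33386272 to 33386451 met an H3K27ac peak of 49. None of the 16 class I and 5 class III CTCF peaks on chromosome 6 shared a base with H3K27ac. The contigs did have such places in both parts, 3 in class I and 3 in class III beside 5 in class II. The 3 in class III lay on apd, cox and qbl and were placed between 31763644 and 31763778 on chromosome 6, with 28, 21 and 20 CTCF fragments beside 72, 46 and 50 H3K27ac fragments. Chromosome 6 had an H3K27ac peak of 39 fragments at 31762579 and no CTCF peak there.

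To set the contigs beside chromosome 6, each was placed by the spacing of its own peaks: runs of summits of the same mark that kept a constant offset. Contig coordinates ran nearly parallel to chromosome 6 through class I and into class III, with steps of up to 8.13 kb between runs. Larger steps came within class III and class II, counted in coordinates with assembly gaps included. In class III, cox was shorter than chromosome 6 by 38.9 kb between the runs that ended at 31802964 and began at 32095701, and qbl by 32.6 kb between 31926433 and 32122077, while ssto was longer by 15.0 kb between 31940557 and 32122077. Up to the next run, which began at 32939018 for cox and at 32940448 for qbl, both in class II, these contigs were shorter by a further 26.9 and 28.8 kb. The mcf contig was longer by 94.0 kb between 32164082 and 33129410, and ssto by 132 kb between 32223627 and 33359878. Where both anchors flanking a contig peak had the same offset to within 150 bases, a counterpart could be looked for at 1 place. Peaks up to 100 kb beyond the outermost anchor had only that anchor and were counted with these. A peak that was itself an anchor counted among its own flanking anchors. Counted this way, 414 of 662 contig peaks had 1 place, 172 lay where flanking offsets differed by more, and 76 lay beyond the placed runs.

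Fewer than 1 in 2 contig peaks had a counterpart on chromosome 6, whereas most chromosome 6 peaks had one on at least 1 contig. With summits within 150 bases, 53 of 214 CTCF peaks (24.8%, 19.5 to 31.0%) and 220 of 448 H3K27ac peaks (49.1%, 44.5 to 53.7%) of the contigs were found on chromosome 6. In the other direction 24 of 37 CTCF peaks (64.9%, 48.8 to 78.2%) and 77 of 99 H3K27ac peaks (77.8%, 68.6 to 84.8%) of chromosome 6 were found on a contig, where up to 7 sequences could hold one. Of these 273 matches, 251 were pairs that had also placed the contigs. When each mark was placed from the other mark alone, an alternative chosen after seeing the data, fewer peaks had a counterpart. These were 16.4% of contig and 48.6% of chromosome 6 CTCF peaks, and 9.15% and 30.3% of H3K27ac peaks. The shares thus depend on the placing, the majority of chromosome 6 peaks was lost, and the order of the marks reversed. Where the flanking offsets were the same, 47 of 103 CTCF peaks (45.6%) and 193 of 311 H3K27ac peaks (62.1%) of the contigs had a counterpart. Pairs that had placed the contigs are counted among these, so the shares are not independent of the placing. The other 56 CTCF and 118 H3K27ac peaks were not matched to a chromosome 6 summit within 150 bases. That does not show an absence: the apd H3K27ac peak of 72 fragments was placed at 31763561, inside the chromosome 6 peak at 31762579 to 31763821. The contig peaks without a counterpart there had a median of 22.5 CTCF and 19 H3K27ac fragments, with up to 76 and 72. Whether each sequence is complete at these places was not tested.

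**Figure D3:**
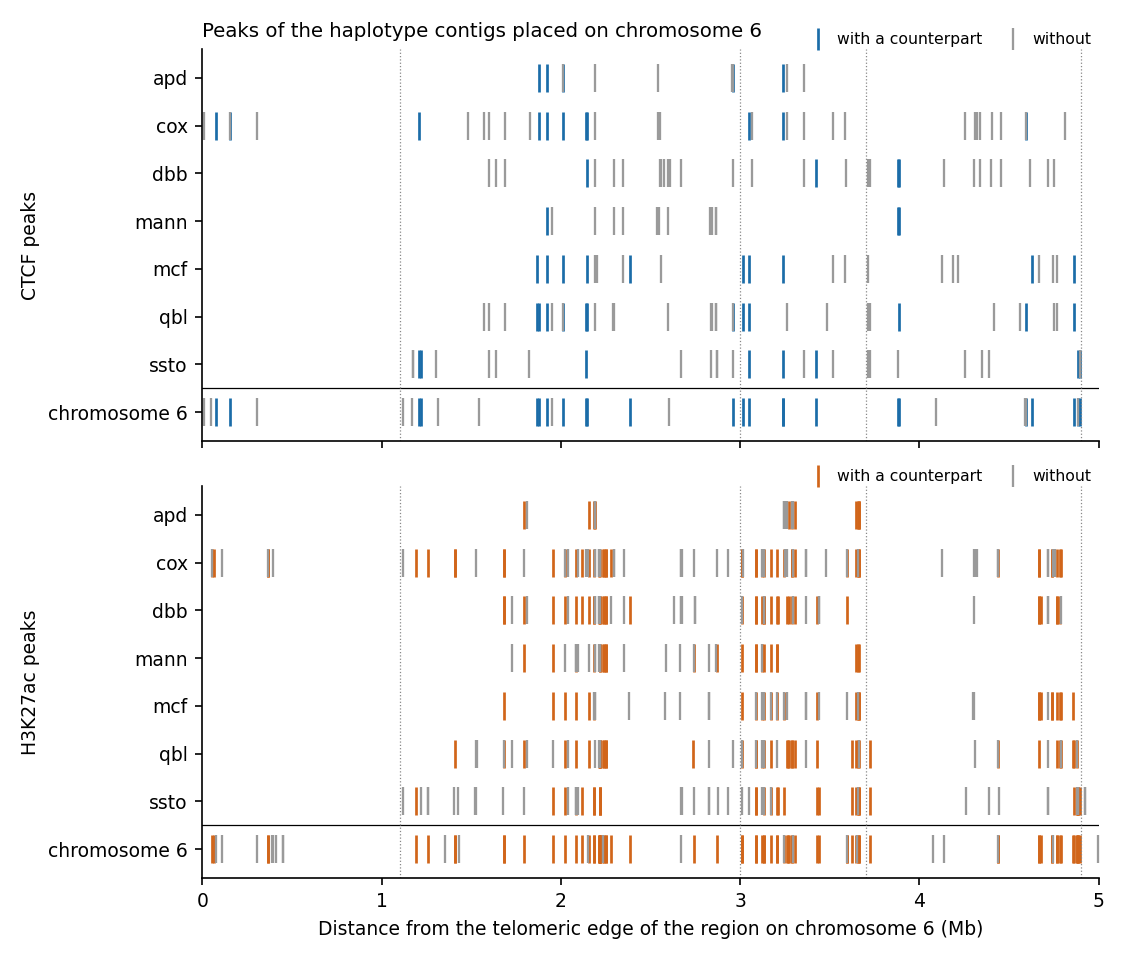
Positions of CTCF peaks (top) and H3K27ac peaks (bottom) on the 7 haplotype contigs, placed on chromosome 6, and on chromosome 6 itself, as distance in Mb from the telomeric edge of the region; coloured marks have a counterpart on the other side, grey ones have none, and dotted lines bound classes I, III and II. The 38 CTCF and 38 H3K27ac peaks beyond the placed runs are not drawn, and coloured H3K27ac marks are densest in class III.

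Class III had the highest shares of matched peaks and was also the part best covered. On chromosome 6, all 30 of its H3K27ac peaks lay within the placed spans of 6 or more contigs, against 25 of 33 in class I and 1 of 23 in class II. Of its contig peaks, 12 of 28 for CTCF (42.9%) and 93 of 146 for H3K27ac (63.7%) had a chromosome 6 counterpart, and all 5 CTCF and 26 of 30 H3K27ac peaks of chromosome 6 had one on a contig. In class I, 27 of 93 CTCF (29.0%) and 84 of 185 H3K27ac peaks (45.4%) of the contigs were found on chromosome 6, and 10 of 16 and 28 of 33 in the other direction. In class II, 12 of 50 CTCF (24%) and 39 of 69 H3K27ac peaks (56.5%) of the contigs were found, and 7 of 11 and 19 of 23 in the other direction. The telomeric flank was covered by few placed runs, and 2 of its 5 CTCF and 4 of its 12 H3K27ac peaks on chromosome 6 had a counterpart.

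The contigs differed in number of peaks and in how many recurred. The cox contig carried 35 CTCF and 97 H3K27ac peaks, close to the 37 and 99 of chromosome 6, and 59 of its 132 peaks (44.7%) had a chromosome 6 counterpart. Of the other contigs, qbl had 53 of 109 (48.6%), dbb 43 of 102 (42.2%), mcf 37 of 88 (42.0%), ssto 39 of 102 (38.2%), apd 16 of 45 (35.6%) and mann 26 of 84 (31.0%). The apd contig had the fewest peaks, 19 CTCF and 26 H3K27ac. CTCF on dbb and mann recurred least, with 4 of 35 and 3 of 29 peaks.

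No peak of chromosome 6 recurred on all 7 contigs. The most for CTCF was 5 contigs, for 1 peak, and the most for H3K27ac was 6, for 6 peaks. The 13 CTCF peaks without a counterpart had a median of 18 fragments and the 22 H3K27ac peaks 17, against medians of 23 and 22 over all peaks of the region. Of these, 2 CTCF peaks and 1 H3K27ac peak lay outside the placed runs of every contig, and leaving them out gave medians of 18 and 17 again. Counting any shared base as a match raised the share of chromosome 6 peaks with a counterpart to 67.6% for CTCF and 84.8% for H3K27ac. The peaks without a counterpart within 150 bases included strong ones. Among them were the CTCF peak at 31105257 with 42 fragments and the H3K27ac peaks at 32936303 with 84 and at 29855034 with 59. For the peak at 32936303 the strongest H3K27ac peak of qbl, with 70 fragments, was placed inside its bounds but with a summit at 32937877, more than 150 bases from the chromosome 6 summit at 32937309.

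Matched peaks had similar fragment numbers in the median, with a wide spread between pairs. Over the 273 matched pairs the median was 25 fragments on the contigs and 25 on chromosome 6. The median ratio of contig to chromosome 6 was 1.04, with quartiles of 0.837 and 1.29, and the contig had more fragments in 141 pairs, the same in 14 and fewer in 118. The H3K27ac peak at 32163772 in class III was matched on 6 contigs, with 63, 72, 57, 65, 66 and 59 fragments on apd, cox, mann, mcf, qbl and ssto, against 63 on chromosome 6.

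**Figure D4:**
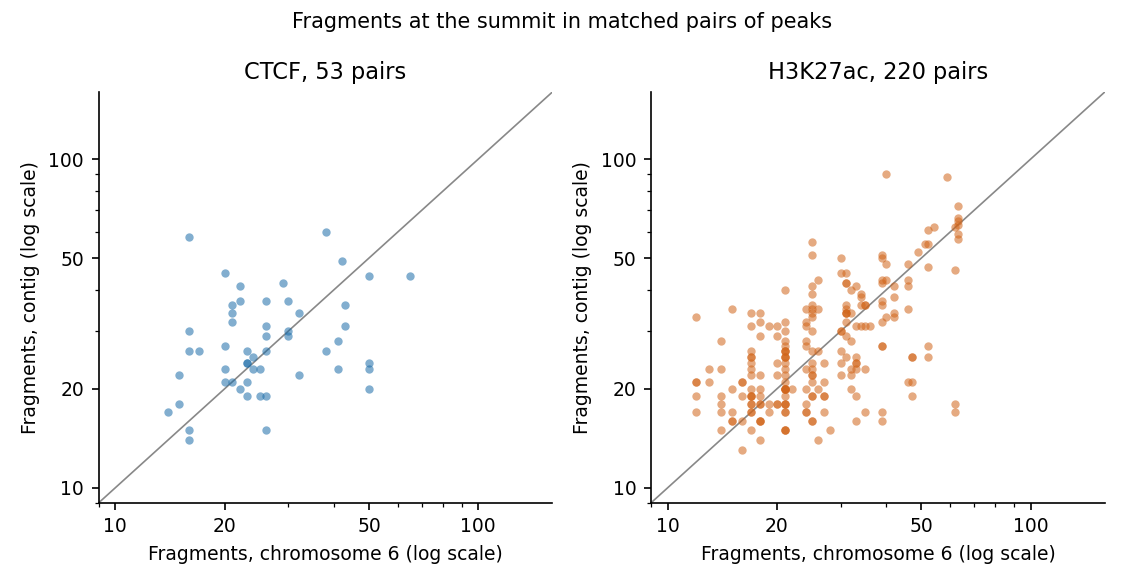
Fragments at the summit on the contig (vertical, log scale) against those of the matched chromosome 6 peak (horizontal, log scale) for CTCF (left) and H3K27ac (right); each point is 1 of the 273 matched pairs and the line marks equal numbers. Points scatter on both sides of the line, with a median ratio of contig to chromosome 6 of 1.04.

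Single sites departed from this. The CTCF site at 30421538 in class I had 58 fragments on cox (44.0 to 75), the strongest CTCF peak of that contig, with 14, 26, 15 and 30 on apd, mann, mcf and qbl, against 16 on chromosome 6. The CTCF site at 30509266 ran the other way, with 23, 44, 24 and 20 fragments on apd, cox, mcf and qbl, against 50 on chromosome 6. The strongest H3K27ac peak of cox, in class II, had 88 fragments (70.6 to 108), against 59 on chromosome 6. The CTCF peak of dbb with the highest fold, also in class II, had 45, against 20. By fragments another CTCF peak of dbb was higher, with 56.

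The strongest peaks of the other contigs were not matched directly to a chromosome 6 summit within 150 bases. The highest CTCF fold among all members, 22.1 with 76 fragments (59.9 to 95.1), was on mcf at contig positions 3466422 to 3466833, placed in class III. The strongest CTCF peaks of mann, ssto and qbl, with 53, 52 and 49 fragments, were placed in class I, and that of apd had 31. The highest H3K27ac fold, 34.0 with 141 fragments (119 to 166), was also on mcf, at 4272679 to 4276307, in the part of class II where the flanking offsets differed. The strongest H3K27ac peak of apd had 72 fragments and was placed in class III, and it was joined through other contigs to the site at 31763361, where chromosome 6 had 39 fragments. Its own placed summit, 31763561, lay inside that chromosome 6 peak. The strongest H3K27ac peak of qbl was also placed inside a chromosome 6 peak, as given above. The strongest H3K27ac peaks of mann and ssto, with 93 and 72 fragments, lay beyond the placed runs of their contigs. Through cox the mann peak was joined to the chromosome 6 peak with a summit at 32939018 and 59 fragments. The ssto peak was joined to peaks of cox, mcf and qbl at a site without a matched chromosome 6 peak. This site was placed at 28892090, where the flanking offsets of the cox peak differed by 6156 bases. An unmatched chromosome 6 peak of 45 fragments lay close by, at 28890692 to 28891763, so absence from chromosome 6 was not shown. The strongest H3K27ac peak of dbb, placed in class I, had 105 fragments. It was joined through other contigs to a site with 43, 105, 56, 21 and 40 fragments on cox, dbb, mann, qbl and ssto, against 25 on chromosome 6 with a summit at 31239620. The dbb and cox peaks were placed at 31249546 and 31243281, away from that summit, and the site held 8 peaks on 6 sequences. These numbers may thus not all belong to 1 place.

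Matches were also made between the contigs themselves, so that all 8 sequences could be joined into sites. Where 2 contig peaks that matched each other both had a chromosome 6 counterpart, it was the same peak in 301 of 304 cases. All these matches came from the same spacing rule, so this count is not an independent test of the joining. CTCF peaks formed 132 sites, 95 of them without a chromosome 6 peak, and 37 of those 95 recurred on 2 or more contigs. H3K27ac peaks formed 216 sites, 119 of them without a chromosome 6 peak, and 30 of those recurred on 2 or more contigs. Of the sites without a chromosome 6 peak, 24 for CTCF and 20 for H3K27ac were not placed on chromosome 6 at all. Others lay where the flanking offsets differed, so the counts do not show that chromosome 6 lacks them all. CTCF sites were carried by few sequences: 71 by 1, and 12 by 4 or more. H3K27ac sites were carried by more, with 111 on 1 sequence, 57 on 4 or more and 14 on 7. The contigs had far more H3K27ac than CTCF anchors when placed from 1 mark alone, 187 against 34. The order of the marks in shares with a counterpart reversed when each was placed from the other. The contrast between marks thus depends on the placing. No site of either mark was seen on all 8.

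**Figure D5:**
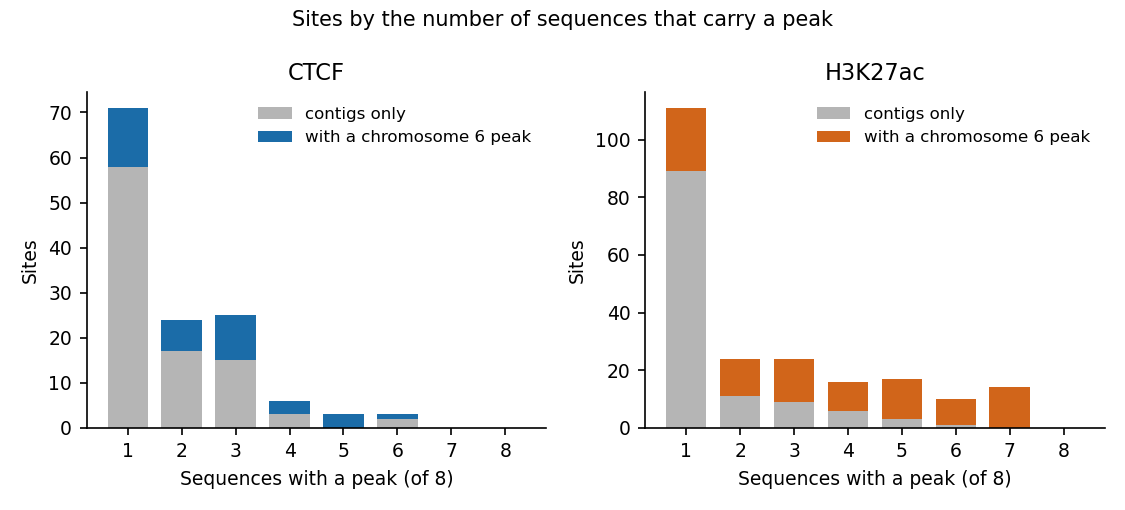
Number of sites (vertical) by the number of sequences, of 8, that carry a peak there (horizontal), for CTCF (left) and H3K27ac (right); grey shows sites on contigs alone and colour those with a chromosome 6 peak. CTCF sites stop at 6 sequences, while 14 H3K27ac sites reach 7. Grey includes 24 CTCF and 20 H3K27ac sites that were not placed on chromosome 6.

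Some sites were repeated across the contigs without a matched peak on chromosome 6. A CTCF site placed at 30098961 in class I had 15, 20, 22, 20, 21 and 39 fragments on apd, cox, dbb, mann, qbl and ssto, and one placed at 30690685 had 21, 19, 17, 42, 29 and 16 on apd, cox, dbb, mann, mcf and qbl, with no chromosome 6 peak at either place. Beside the second, an H3K27ac site placed at 30689685 had 25, 22, 16, 32, 33 and 22 fragments on the same contigs and no matched peak on chromosome 6. The flanking offsets there differed by 143 bases on cox but by 3086 on apd. By the other offset, a neighbouring apd peak was matched to the chromosome 6 peak with a summit at 30685800, so the apd peaks were not surely placed. The remaining H3K27ac sites on 6 or more sequences all had a chromosome 6 peak. Those on 7 lay between 30181552 and 32164082, in classes I and III, where most peaks lay within reach of 6 or more placed contigs; the class II peaks mostly did not.

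Fragments were also added over the sequences of each recurrent site. The 12 CTCF sites on 4 or more sequences summed to a median of 129 fragments (73 to 161). The 57 H3K27ac sites summed to a median of 142 (66 to 445). Each sum adds peaks that had each passed the threshold, so it is a description of what was called and not an estimate of occupancy. Within sites, the highest fragment number was a median of 2.02 times the lowest for CTCF and 1.75 times for H3K27ac. The Poisson intervals of the highest and lowest overlapped at 7 of 12 CTCF and 41 of 57 H3K27ac sites.

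Overlap of the marks was also counted over joined sequences, which can only raise the count. On their own sequence 10 of 108 placed CTCF sites (9.26%, 5.11 to 16.2%) shared a base with H3K27ac. After placing all peaks on chromosome 6, 15 of 108 (13.9%, 8.60 to 21.7%) shared a base with an H3K27ac peak of any sequence, so at 5 sites the marks were called on different sequences only. For H3K27ac the counts were 11 of 196 sites (5.61%) and 16 of 196 (8.16%, 5.09 to 12.8%). The interval of the second included the list's share of 10.1%.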

How the data were processed

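Peak lists of 1 CTCF and 1 H3K27ac library of DU145 cells were used; the input libraries enter through the lists' background alone. Bowtie, MACS2 and build hg19 were used, per the submitters' processing notes; versions, settings and the input used as control were not given in the sources used here. For each peak the authors deposited start, end and summit, a whole-number score (not used), a fold enrichment, which is a ratio over local background, and p-values and q-values as −log10. Sequencing depth is not in the lists. Fragments at each summit and the local background were solved from the deposited fold and −log10 p for all 798 members (tolerance 0.002), after multiplying CTCF fragments by 0.911; the method was checked on simulated data.

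Contigs were placed on chromosome 6 by runs of at least 2 same-mark summit pairs with offsets within 150 bases and neighbours within 300 kb, extended by 100 kb at the ends, and peaks were matched 1 to 1. The limit of 300 kb was added after seeing that lone pairs had joined runs wrongly. Peaks belong where their summit lies; positions count from 1. Intervals are exact Poisson or Wilson at 95%. Regions named were, in each list, the 5 highest folds, the highest fold in each part and on each contig, the 5 longest domains, the widest gap, and sites on 6 or more sequences or of unequal strength, the last 2 kinds chosen after their values were seen; 1 of these is not reported here. Members and lists were chosen with earlier results of these data known. Analyses used Python 3.11.15, NumPy 2.4.6, pandas 2.3.3, SciPy 1.17.1 and matplotlib 3.10.9. Alternatives were a −log10 q of at least 10, above-median fold, other matching and joining rules, and placing from 1 mark.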

Additional observations from a re-analysis of the deposited data

How the results depend on the processing

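With −log10 q of at least 10, 22 CTCF peaks (4.4 per Mb; class I 4.21, class II 5.83) and 49 H3K27ac peaks (9.8 per Mb; class I 8.42, class III 20) were left in the region, the shares of peaks that share bases were 0% for both marks, and 43.9% of contig H3K27ac peaks had a chromosome 6 counterpart. With above-median fold alone, 8 CTCF peaks (1.6 per Mb; class I 1.58, class III 1.43, class II 3.33) were left, H3K27ac in class III stood at 27.1 per Mb, and the shared shares were again 0%. Requiring a summit inside the other mark's peak left 1.01% of H3K27ac peaks. Counting any shared base as a match gave counterparts for 59.4% of contig and 84.8% of chromosome 6 H3K27ac peaks. Placing from the other mark alone, chosen after seeing the data, gave 16.4% of contig and 48.6% of chromosome 6 CTCF peaks, and 9.15% and 30.3% for H3K27ac, with 187 H3K27ac and 34 CTCF anchors; the cause was not tested. Of 60 alternative values 34 stayed close to the value reported (a share within its 95% interval, a number or density within 1.5 times, a median fold within the quartiles), among them all for background, median fold and domain number. The fewer peaks under stricter thresholds follow from fewer peaks kept. No paired analysis was possible because each mark has 1 library. Fragment numbers of 11 to 141 limit single peaks, so counterparts near the threshold can be missed by counting error alone.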
